A study of Mus musculus with 24 samples.

Results

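The cytosolic ribosomal protein genes encode the proteins that, with ribosomal RNA, build the large and small subunits of the ribosome outside the mitochondria. They were taken from a table of heart expression arrays by gene symbol alone: every symbol of the form Rpl or Rps followed by a number, together with Rplp0, Rplp1, Rplp2 and Rpsa, leaving out the Rps6k kinases. The rule found 67 of the 24011 named genes. It uses no measured value, but it was set with earlier results of these data known. The set holds 33 proteins of the large subunit, 22 proteins of the small subunit, 11 paralogs or copies of such genes, and 1 gene that is none of these. That gene is Rps19bp1, which encodes a binding partner of Rps19. A copy need not encode a ribosomal protein. Rpl6l and Rps4l are annotated by RefSeq as pseudogenes.

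The study asked how the heart responds to a stroke in the brain. All mice were C57BL/6J and 8 weeks old. They had either MCAO, a blockage of the middle cerebral artery that cuts the blood supply of part of the brain, or a sham operation, and whole hearts were taken 24 h or 72 h later. Each of the 4 groups (sham 24 h, MCAO 24 h, sham 72 h and MCAO 72 h) had 6 Affymetrix arrays of Trizol-extracted total RNA, 24 arrays in all. The labels do not say that each array was a separate animal, so p-values measure only the spread between these arrays, which may in part be technical. In RNA of whole tissue, fewer cells of a type and less RNA per cell cannot be told apart.

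In most cells the messenger RNAs of ribosomal proteins are among the most abundant, and ribosomes are built largely from the same set of canonical proteins. Their translation is set largely by the mTORC1 kinase pathway through a pyrimidine-rich start of the message. Heart and skeletal muscle also make Rpl3l, a paralog that takes the place of Rpl3 in part of the ribosomes of muscle cells.

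Values are array brightness on a log2 scale, and a change is the difference of 2 group means on that scale. Brightness depends on the probe as well as on the RNA, so the genes were not ranked by abundance. A change was called when limma's moderated test, adjusted by Benjamini-Hochberg over all 24011 named genes, fell under 0.05. As a yardstick for dim genes, 1365 olfactory and vomeronasal receptor genes, which hearts hardly express, were used. The 99th percentile of their means, a log2 value of 4.845, is called the receptor level. It was chosen after the data were seen.

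The tissue matched its label. The 8 cardiomyocyte markers had array means between 12.52 and 12.9 over all 4 groups, and all 5 skeletal muscle markers and all 4 adipocyte markers stayed at or below the receptor level. Each array correlated with the mean of the rest of its group at r = 0.971 to 0.997 over all genes, and MCAO 24 h replicates 6 and 5 were lowest, at 0.971 and 0.976. Among the receptor genes, the differences from sham scattered more widely on MCAO 24 h arrays (SD 0.152 to 0.305) than on sham 24 h arrays (SD 0.0920 to 0.129). Sham arrays also stood apart within the ribosomal set. Sham 24 h replicate 5 lay 0.21 above the other shams on average over the 67 members, sham 72 h replicate 3 lay 0.12 above, and sham 24 h replicate 3 lay 0.16 below, at -0.16.

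Most ribosomal protein rows were dim on these arrays. Only 24 of the 67 members (35.8%) had a mean above the receptor level, against 36.8% of all named genes, and 17 of the 55 canonical members did so. The median of the member means was 4.41, against 4.16 for all genes, and 49 members had means under 5. The members just above the receptor level were Rpl36al at 4.85 and Rpl7l1 at 4.85. The nearest below it were Rpl23 at 4.81 and Rps27 at 4.80. Fau, which encodes a small-subunit protein fused to a ubiquitin-like protein and whose symbol the rule does not take, read 3.91. Among elongation factors, Eef1a1, which brings aminoacyl-tRNA to the ribosome, read 3.59, but 7 of the 8 measured were above the receptor level, among them Eef2 at 11.56, Eef1a2 at 11.36 and Eef1b2 at 10.48. Members varied more between arrays of a group than genes at large, with a median residual SD of 0.237 against 0.164.

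**Figure D1:**
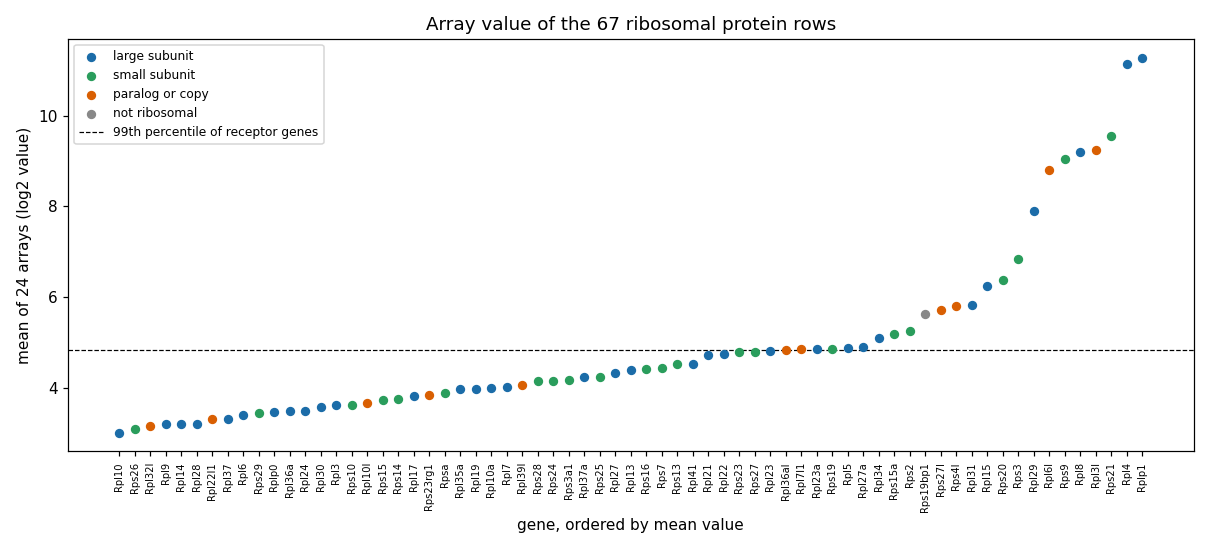
Mean log2 value over the 24 arrays (vertical axis) of each of the 67 genes (horizontal axis, ordered by value), coloured by class. The dashed line is the 99th percentile of the olfactory and vomeronasal receptor genes at 4.845, and 24 members lie above it.

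The 7 members with means above 8, singled out after their values were seen, were Rplp1 at 11.28, Rpl4 at 11.15, Rps21 at 9.55, Rpl3l at 9.24, Rpl8 at 9.21, Rps9 at 9.04 and Rpl6l at 8.80. Rplp1 is an acidic protein of the P-stalk, which recruits translation factors. Rpl4 reaches into the tunnel through which the new peptide leaves, Rpl8 and Rps9 are core proteins of the large and the small subunit, and Rps21 belongs to the small subunit. Rpl29, another large-subunit protein, read 7.90 on average, but a single array, MCAO 24 h replicate 6, read 4.73.

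At 72 h after the occlusion, 1 ribosomal protein gene was called, and it was the muscle paralog Rpl3l (Entrez 66211). Sham 72 h arrays read from 9.22 to 9.74 with a median of 9.43, and MCAO 72 h arrays read from 8.55 to 9.15 with a median of 8.80. The groups did not overlap: the highest MCAO 72 h array, replicate 4, lay below the lowest sham array, replicate 2. The mean fell from 9.46 ± 0.18 (SD, n = 6) to 8.83 ± 0.23 (SD, n = 6), a log2 change of -0.63 (SE 0.14, 95% confidence interval -0.91 to -0.34), or 1.54-fold lower. All 6 of 6 MCAO arrays lay below the sham mean, and limma's adjusted p was 0.0123. Leaving out each array in turn gave adjusted p values between 0.00396 and 0.0413, so the call did not depend on any single array.

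At 24 h Rpl3l showed no called change. Sham 24 h arrays read from 9.05 to 9.93 with a median of 9.32, and MCAO 24 h arrays from 8.91 to 9.66, also with a median of 9.32. These groups overlapped almost entirely, and the log2 change was -0.09 (SE 0.14, 95% confidence interval -0.38 to 0.20, limma adjusted p = 0.675). The difference between the 72 h and the 24 h change was -0.53 and was not called (limma adjusted p = 0.153), so the data do not show that the times differ for this gene.

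Rpl3l is made in muscle cells, and the cardiomyocyte markers are given beside it. Their 8-gene mean ranged from 12.78 to 12.9 on sham 72 h arrays and from 12.63 to 12.79 on MCAO 72 h arrays, with group means of 12.84 and 12.72. None of the 8 was called at 72 h, and their median log2 change was -0.12, against -0.63 for Rpl3l. At 24 h, where Rpl3l was not called, the group means were 12.84 in sham and 12.71 after MCAO, the median log2 change was -0.11, and 2 of the 8 were called lower: Myh6 at -0.33 and Ryr2 at -0.18 (limma adjusted p = 0.0174 and 0.0405). Their part in the Rpl3l result was not tested. The skeletal muscle markers stayed at or below the receptor level in both groups.

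**Figure D2:**
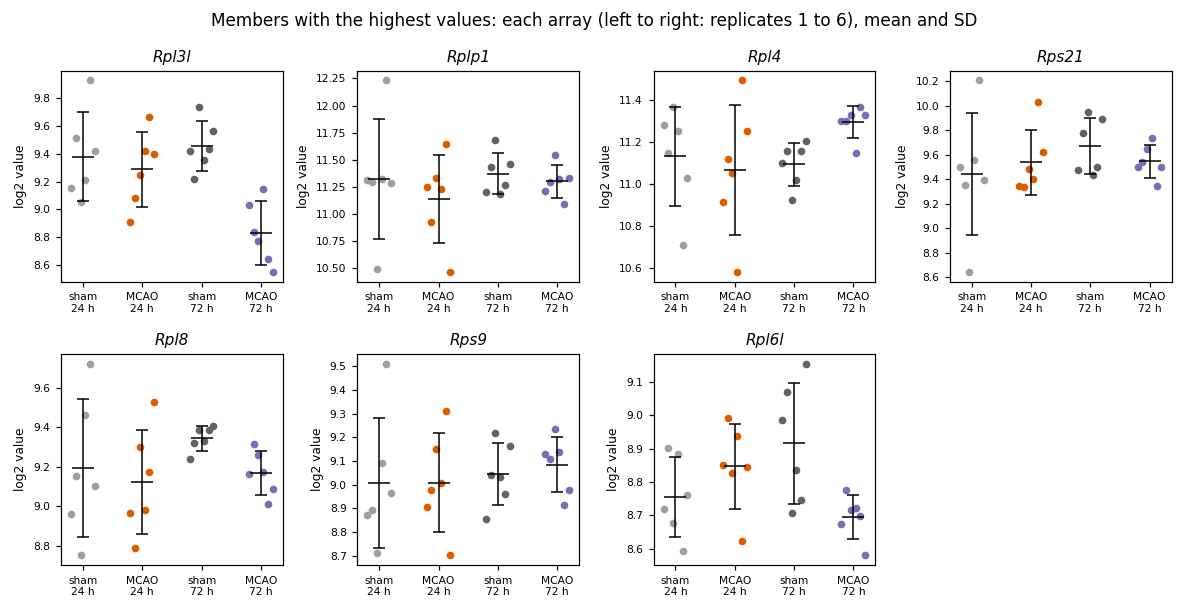
Log2 value (vertical axis) on each array of the 7 members with means above 8, by group (horizontal axis, 6 arrays each). Points are arrays in order of replicate number, and bars are the mean and SD; Rpl3l at 72 h is the pair of groups without overlap, with 8.55 to 9.15 after MCAO against 9.22 to 9.74 in sham.

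RefSeq (GRCm38.p6) gives a promoter window, 300 bases around the start of transcription, for 53 of the members. Many canonical genes carry the letters CCGGAA, the core of the sites bound by ETS-family factors, and a pyrimidine run at the start. CCGGAA, searched on both strands, lay in the windows of 23 of 43 canonical members (53.5%), of 26 of all 53 members (49.1%), and of 16.7% of all 27025 genes with a window. The pyrimidine letters CTTTCC, searched on the gene's own strand, lay in 17 of 43 canonical members (39.5%), 20 of 53 members (37.7%) and 16% of all genes. The motifs can overlap, as in CTTTCCGG, where the other strand reads CCGGAA. Neither was found in the 2 windows RefSeq gives for Rpl3l, which says only that these letters are not there. A match describes the letters and is no evidence of binding.

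The following stretches are examples, with Rpl3l first, then canonical genes that are bright (Rpl4, Rps21) or were called at 24 h (Rps27, Rpl31). These canonical genes each carry a motif, while Rps28 and Rpl24, also called at 24 h, carry neither in their windows. Of the Rpl3l windows, only the first is shown. Each stretch runs 5′ to 3′ on the gene's strand over 100 bases before the start and 20 bases from it on. Capitals mark CCGGAA on either strand or CTTTCC. In the order given they lie at chr17:24727726-24727845 (plus strand), chr9:64173287-64173406 (plus), chr2:180257279-180257398 (plus), chr3:90213629-90213748 (minus) and chr1:39367751-39367870 (plus).
Rpl3l: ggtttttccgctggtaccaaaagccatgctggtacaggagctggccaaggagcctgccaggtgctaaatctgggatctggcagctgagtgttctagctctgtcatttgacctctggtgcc
Rpl4: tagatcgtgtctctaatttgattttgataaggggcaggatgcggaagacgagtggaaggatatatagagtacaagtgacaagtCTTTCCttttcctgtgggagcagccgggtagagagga
Rps21: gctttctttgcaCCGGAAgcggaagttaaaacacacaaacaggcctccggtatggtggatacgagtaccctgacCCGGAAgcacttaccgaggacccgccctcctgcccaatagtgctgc
Rps27: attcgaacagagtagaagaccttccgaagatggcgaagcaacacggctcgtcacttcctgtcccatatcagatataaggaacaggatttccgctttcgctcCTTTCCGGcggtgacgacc
Rpl31: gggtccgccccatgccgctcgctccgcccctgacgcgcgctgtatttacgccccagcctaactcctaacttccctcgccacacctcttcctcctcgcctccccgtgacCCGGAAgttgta

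Of the 67 members, 1 (1.49%) was called at 72 h, against 2.35% of all named genes in either direction and 1.19% in the downward direction. No member was called higher. The median log2 change of the members was -0.07, against 0.00155 for all genes, with 24 positive and 43 negative, and 5 members had an unadjusted p under 0.05. Among the 55 canonical members 0 were called with limma (2 at an unadjusted p under 0.05), 20 were positive and 35 negative, and the median was -0.08. Without regard to sign, the median size of the 72 h change was 0.116 in the members and 0.0618 in all genes, beside the larger residual SD of the members given above.

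Among the bright members, Rpl4 came nearest to a change in the other direction. Sham 72 h arrays read from 10.92 to 11.21 with a median of 11.13, and MCAO 72 h arrays from 11.15 to 11.37 with a median of 11.31. The arrays overlapped only between 11.15 and 11.21, and the log2 change of 0.20 (95% confidence interval -0.03 to 0.44) was not called (limma adjusted p = 0.609). Rpl15, a core protein of the large subunit, had a log2 change of -0.40 (SE 0.16, limma adjusted p = 0.259). It passed, as did Rpl4 and Rps20, when only the 72 h arrays were fitted, which raised the number of called members to 4. That fit also called more of all named genes, 735 higher and 675 lower, against 280 and 285 in the main fit. The pseudogene copy Rpl6l differed by -0.22 (limma adjusted p = 0.158) and the P-stalk protein Rplp1 by -0.07 (95% confidence interval -0.48 to 0.33).

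**Figure D3:**
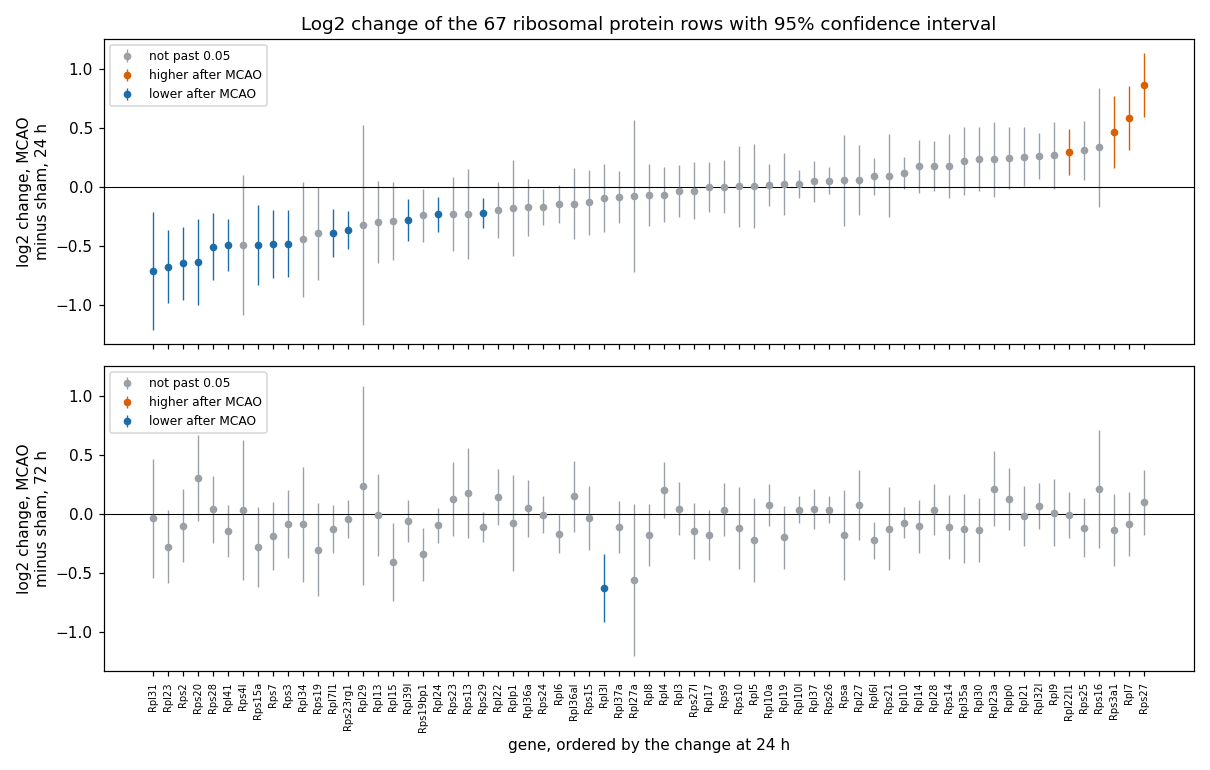
Log2 change after MCAO (vertical axes, MCAO minus sham, 6 arrays a group) at 24 h in the upper panel and 72 h in the lower one, for the 67 genes ordered by the 24 h change (horizontal axis). Bars are 95% confidence intervals and colours mark calls: 4 genes higher and 14 lower at 24 h, and Rpl3l alone, at -0.63, at 72 h.

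One day after the occlusion, 18 of the 67 members (26.9%) were called, 4 higher and 14 lower. Among all named genes 21.8% were called at 24 h, so the share of members in either direction together was near the background. By direction, 11.1% of all genes were called upward and 10.8% downward, about evenly, while most of the member calls were lower. Whether this lean goes beyond that of other gene sets was not tested. The median member change was -0.07, against 0.00818 for all genes. By subunit, 5 of 33 large-subunit genes, 9 of 22 small-subunit genes and 4 of 11 paralogs or copies were called. The members above the receptor level gave 6 calls of 24 (25.0%), all of them lower, against 28.6% of all genes above that level. The 43 dimmer members gave 12 calls (27.9%), against 17.9% of all dim genes and 11.6% of the receptor genes themselves.

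In an alternative limma fit, the leading principal component over the receptor genes entered as a covariate. Whether it stands for their wider scatter was not tested. Then 0 of 67 members were called at 24 h (15 at an unadjusted p under 0.05). Of all named genes 321 were called, against 5237 in the main fit. None of the 18 calls held under that fit, in which the SE of each rose, by up to 1.84 times. For Rps27 the SE went from 0.1322 to 0.2435 at 24 h, but from 0.1322 to 0.1349 at 72 h. The covariate thus overlaps with the 24 h contrast, so a call lost under it does not decide whether that change holds. The changes themselves went different ways: 8 of the 18 stayed within 1.5 times of their size, 1 grew and 7 shrank by more than that, and 2 turned sign. Of those that stayed, Rps2 went from -0.65 to -0.54, Rpl7 from 0.58 to 0.48, Rps3 from -0.48 to -0.59 and Rpl31 from -0.71 to -0.95. Of those that shrank, Rpl23 went from -0.68 to -0.05, Rps28 from -0.51 to -0.01 and Rpl24 from -0.23 to -0.05. Markers of several cell types were called at 24 h too, beside 21.8% of all named genes and 28.6% of those above the receptor level. Lists that lay wholly at or below that level gave calls as well: 2 of 5 skeletal muscle markers, 2 of 3 red cell markers and 1 of 4 adipocyte markers. Among them Tnnt3 differed by -0.62 (limma adjusted p = 3.53e-05). Of 6 leukocyte markers 0 were called. The mean of the 5 fibroblast markers was 7.97 in sham (arrays 7.82 to 8.22) and 7.61 after MCAO (7.24 to 7.85). The smooth muscle and pericyte mean was 8.86 in sham (8.74 to 9.04) and 8.51 after MCAO (8.31 to 8.65). In each of these lists 2 of 5 genes were called lower and none higher: Lum at -1.31 and Col1a1 at -0.83 among the fibroblast markers, and Acta2 at -0.84 and Tagln at -0.50 among the smooth muscle markers. The fibroblast median was -0.07, and Tcf21 differed by 0.26, not called. Of the 5 endothelial markers, Tie1 and Pecam1 were called higher and Kdr lower (0.46, 0.27 and -0.88), and of the 8 cardiomyocyte markers the same Myh6 and Ryr2 as above were lower. The part of these cell types in the ribosomal protein results was not tested.

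Rps27 (Entrez 57294), a zinc-finger protein of the small subunit, rose most at 24 h. Sham arrays read from 4.32 to 4.79 with a median of 4.54, and MCAO arrays from 5.19 to 5.55 with a median of 5.38. The groups did not overlap, and the means of 4.52 ± 0.18 and 5.38 ± 0.14 (SD, n = 6 each) differed by 0.86 (SE 0.13, limma adjusted p = 9.75e-05), or 1.82-fold. Its mean over all arrays was just under the receptor level. With the receptor covariate the difference was as large, at 0.90, but its SE grew to 0.24 and limma's adjusted p to 0.0673.

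The other 3 members that rose were dim. Rpl7, a large-subunit protein, read 3.48 to 4.20 in sham (median 3.86) and 3.90 to 4.80 after MCAO (median 4.49). The groups overlapped in part, and the log2 change was 0.58 (SE 0.13, limma adjusted p = 0.00318). Rps3a1, a small-subunit protein, changed by 0.47 (limma adjusted p = 0.0259), and the paralog Rpl22l1 by 0.30 (limma adjusted p = 0.027). With the receptor covariate the Rpl22l1 change was 0.12 (limma adjusted p = 0.771).

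Among the small-subunit genes above the receptor level, 4 fell: Rps2, Rps20, Rps15a and Rps3. Rps2 and Rps3 line the entry channel of the messenger RNA, and Rps20 sits in the head of the subunit. Rps2 read 5.21 to 5.89 in sham (median 5.45) and 4.33 to 5.41 after MCAO (median 4.94), a log2 change of -0.65 (SE 0.15, limma adjusted p = 0.00376). The groups overlapped between 5.21 and 5.41. Rps3, the brightest of the called members, read 6.80 to 7.48 in sham (median 6.86) and 6.21 to 6.89 after MCAO (median 6.43). It fell by 0.48 on the log2 scale (SE 0.14, limma adjusted p = 0.0163), with a narrow overlap between 6.80 and 6.89.

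Rps20 read 6.23 to 6.74 in sham (median 6.47) and 4.81 to 6.35 after MCAO (median 6.04). Its log2 change was -0.63 (SE 0.18, limma adjusted p = 0.0128). MCAO 24 h replicates 4, 5 and 6 lay below all sham arrays, at 5.83, 5.52 and 4.81. Without MCAO 24 h replicates 5 and 6 the change was -0.30 (limma adjusted p = 0.0373), and with the receptor covariate its sign turned, to 0.12 (limma adjusted p = 0.869). Rps15a changed by -0.49 (limma adjusted p = 0.0341), and by -0.24 with the receptor covariate (limma adjusted p = 0.735).

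Of the dimmer small-subunit genes, Rps28 fell by 0.51, Rps7 by 0.48 and Rps29 by 0.22 on the log2 scale (limma adjusted p = 0.0112, 0.0158 and 0.0125). In all 3, each of the 6 MCAO arrays lay below the sham mean. With the receptor covariate they differed by -0.01, -0.77 and -0.24, none called (limma adjusted p = 0.99, 0.111 and 0.275). Rps7 is also known for binding Mdm2, the ubiquitin ligase of p53.

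In the large subunit, Rpl31 and Rpl23 fell most. Rpl31, which lies at the exit of the peptide tunnel, read 5.61 to 6.94 in sham (median 6.00) and 4.51 to 6.20 after MCAO (median 5.35). The groups overlapped widely, only 4 of 6 MCAO arrays lay below the sham mean, and the log2 change was -0.71 (SE 0.24, limma adjusted p = 0.0378). Rpl23, at the face towards the small subunit, read 4.63 to 5.67 in sham (median 4.92) and 3.82 to 4.64 after MCAO (median 4.44). Those groups overlapped only between 4.63 and 4.64, and the change was -0.68 (SE 0.15, limma adjusted p = 0.00278), against -0.05 with the receptor covariate (limma adjusted p = 0.935). Rpl41, the smallest protein of the ribosome, fell by 0.49 on the log2 scale (SE 0.11, limma adjusted p = 0.00223), and Rpl24 by 0.23 (limma adjusted p = 0.0245). With the receptor covariate Rpl41 differed by -0.28 (limma adjusted p = 0.468).

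**Figure D4:**
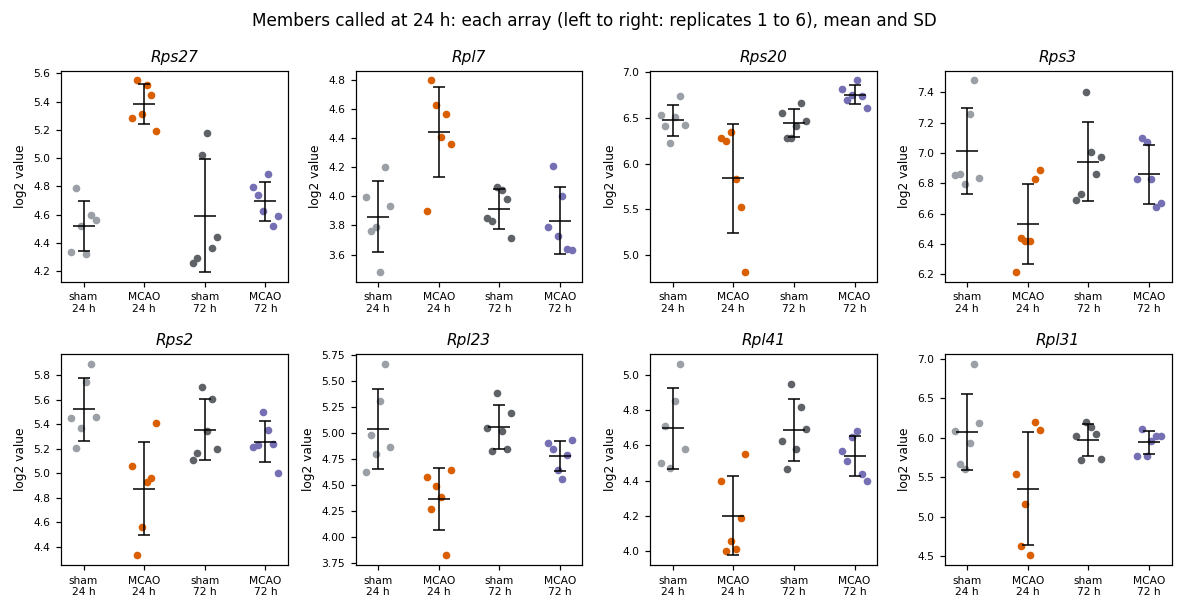
Log2 value (vertical axis) on each array, by group (horizontal axis, 6 arrays each), of 8 members called at 24 h. Points are arrays in order of replicate number, and bars are the mean and SD; Rps27 alone separates the 24 h groups fully, with 5.19 to 5.55 after MCAO against 4.32 to 4.79 in sham.

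Of the 18 calls at 24 h, 12 held when any single array was left out. The other 6 did not: Rpl31 lost its call without any of 7 arrays (MCAO 24 h replicates 2, 3 and 4, sham 24 h replicates 1, 4, 5 and 6), and Rps15a likewise without any of 7 (MCAO 24 h replicates 4 and 6, sham 24 h replicates 2 to 6). Rpl22l1 lost it without any of 5 (MCAO 24 h replicates 1 and 5, sham 24 h replicates 1, 3 and 4), and Rps3a1 without any of 4 (MCAO 24 h replicate 5, sham 24 h replicates 1, 3 and 4). Rpl24 lost it without MCAO 24 h replicate 4 or sham 24 h replicate 3, and Rpl39l without sham 24 h replicate 4.

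None of the 7 bright members was called at 24 h. Rps9 differed by 0.00132 on the log2 scale (95% confidence interval -0.22 to 0.23), Rpl8 by -0.07 (-0.33 to 0.19), Rpl4 by -0.06 (-0.30 to 0.17), Rplp1 by -0.18 (-0.59 to 0.23) and Rps21 by 0.09 (-0.26 to 0.45). Rpl6l differed by 0.09 (-0.07 to 0.25). These intervals leave room for changes of the sizes that were called in dimmer members, most of all for Rplp1 and Rps21.

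Comparing the changes at 72 h and 24 h directly, 1 of 67 members was called, against 1.79% of all named genes. It was Rps27, whose 72 h change of 0.10 lay 0.76 below its 24 h change, at -0.76 (SE 0.19, limma adjusted p = 0.0376). At 72 h its sham arrays read 4.26 to 5.18 and its MCAO arrays 4.52 to 4.89, one range inside the other. The call on this difference was lost when any of 12 arrays was left out (MCAO 24 h replicates 2 and 4, MCAO 72 h replicates 2, 3, 5 and 6, sham 24 h replicates 1, 3, 4 and 5, sham 72 h replicates 4 and 6), with limma adjusted p up to 0.0676. With the receptor covariate the difference was -0.80 (limma adjusted p = 0.274). Rps20 ran the other way, from -0.63 at 24 h to 0.31 at 72 h, and its difference of 0.94 was the highest of the set but was not called.

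Between sham hearts at 72 h and 24 h, 0 of 67 members were called with limma, against 0.0208% of all named genes. At an unadjusted p under 0.05 there were 2 members.

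The paralogs form a group of their own. A chosen list of pairs gave 6 of them a measured canonical partner. The paralog's log2 value minus its partner's on the same array was compared between MCAO and sham. Other copies were not in the list, among them Rpl6l, although its parent gene Rpl6 was measured. Two-sided exact permutation tests over arrays were run at both times, 12 in all, and adjusted together; the smallest p that 6 against 6 arrays allow is 0.00216. Because the probes of the 2 genes differ, only the change of this difference has a meaning. In none of the 6 pairs did both genes lie above the receptor level, so each difference sets a gene against a row near or below it, and the pairs are given as a description that adds no support to the calls on single genes.

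Rpl3l lay above that level and Rpl3 below it. Rpl3l minus Rpl3 was 5.82 ± 0.13 in sham and 5.15 ± 0.18 after MCAO at 72 h (SD, n = 6 each), a change of -0.67 (exact permutation p = 0.00216, adjusted p = 0.026). At 24 h the same difference changed by -0.06 (exact permutation p = 0.799, adjusted p = 0.871). Rpl3 itself, which makes contacts at the peptidyl transferase centre, had a mean of 3.62, under the receptor level. It showed a 72 h change of 0.05 (95% confidence interval -0.18 to 0.27), beside -0.63 for Rpl3l.

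At 24 h 3 other pairs passed. Rps27l minus Rps27 changed by -0.89 and Rpl7l1 minus Rpl7 by -0.97 (exact permutation adjusted p = 0.026 for each). Rpl22l1 minus Rpl22, both below the receptor level, changed by 0.49 (exact permutation adjusted p = 0.026). Rps27 and Rpl7 were below it as well, with means of 4.80 and 4.01. In the Rps27 pair the canonical gene was called and Rps27l, a p53-inducible paralog, was not, at -0.03 (95% confidence interval -0.27 to 0.21). In the Rpl7 pair both moved, Rpl7 upward and Rpl7l1 downward, by 0.58 and -0.39. Rpl22l1 and Rpl22 moved apart by 0.30 and -0.20, the latter not called. Without sham 24 h replicate 4 only 1 of the 24 h pairs passed, and without sham 72 h replicate 4 the 72 h pairs that passed rose to 2. Rpl36al and Rpl10l, a testis-expressed copy of Rpl10, showed no pair difference that passed at either time.

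The remaining copies were mixed. Rps23rg1 fell at 24 h from 3.94 to 3.58 (limma adjusted p = 0.00229) and Rpl39l by 0.28 on the log2 scale (limma adjusted p = 0.0223), both below the receptor level. With the receptor covariate they differed by -0.19 and 0.0451, neither called (limma adjusted p = 0.525 and 0.905). Rps4l, annotated as a transcribed pseudogene, read 5.32 to 6.46 in sham and 4.06 to 6.62 after MCAO at 24 h, a change of -0.49 that was not called (limma adjusted p = 0.228). Rpl6l read 8.80 on average while its parent gene Rpl6 read 3.41; sequence shared between a gene and its copy can place signal on either row, so both are uncertain.

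Ribosomal protein genes are often used as references in RT-qPCR, and 7 of the common ones were measured: Rplp0, Rpl4, Rps29, Rpl27, Rps16, Rpl19 and Rpl37a. At 24 h 1 of the 7 (14.3%) was called, Rps29 at -0.22, against 21.8% of all named genes, and at 72 h none was, against 2.35% (adjusted over all genes with limma). Only Rpl4 was above the receptor level. Rps16 spread from 3.44 to 5.45 over the MCAO 24 h arrays. Among 10 common reference genes that are no ribosomal protein, Actb, the cytoskeletal actin, fell at both times (-0.72 at 24 h and -0.53 at 72 h, limma adjusted p = 0.000813 and 0.0374). Tfrc and Ywhaz fell and Tbp rose at 24 h, by -1.47, -0.66 and 0.34.

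Genes that act on the ribosome were read beside the members. Their counts stand against 21.8% of all named genes called at 24 h and 2.35% at 72 h. Most genes of each list lay above the receptor level, where 28.6% of all genes were called at 24 h. Of 16 measured genes listed for mTORC1 or Myc, 5 rose and 1 fell at 24 h (37.5%), and 3 rose at 72 h (18.8%). Ddit4, an inhibitor of mTORC1, rose by 1.71 at 24 h and 1.61 at 72 h (limma adjusted p = 0.00147 and 0.0105). Mxd4, a Max partner that opposes Myc, rose by 0.90 and 0.59 (limma adjusted p = 9.67e-06 and 0.00307). Rps6kb2, a ribosomal protein S6 kinase downstream of mTORC1, rose by 0.56 at 24 h (limma adjusted p = 0.00654). Eif4ebp1, which holds back cap-dependent initiation, rose by 0.56 at 24 h (limma adjusted p = 0.0075). Tsc1, a brake on mTORC1, rose by 0.36 at 72 h (limma adjusted p = 0.0226).

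Of 8 measured elongation factors and regulators, 1 (12.5%) was called at each time. It was Eef2k, the kinase that inactivates elongation factor 2, which rose by 1.01 at 24 h and 0.74 at 72 h (limma adjusted p = 0.000328 and 0.0212). Its target Eef2, at a mean of 11.56, differed by 0.09 and 0.15, neither called. Of 28 measured initiation factors, 5 rose and 3 fell at 24 h (28.6%, the same as the 28.6% of all genes above the receptor level) and 1 rose at 72 h (3.57%). Eif4e, the cap-binding protein, fell by 0.83 on the log2 scale at 24 h (limma adjusted p = 0.000328). Eif3b, a scaffold of the eIF3 complex, rose at both times, by 0.35 and 0.48 (limma adjusted p = 0.00244 and 0.000507).

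Of 55 ribosome biogenesis factors, 8 rose and 6 fell at 24 h (25.5%), and at 72 h 1 fell and none rose (1.82%), shares near those of all genes. That gene was Cmss1, a factor of small-subunit assembly by its homology to yeast, which fell by 0.77 at 24 h and 1.47 at 72 h on the log2 scale (limma adjusted p = 0.000782 and 5.14e-06). Of 15 genes of RNA polymerase I and its factors, 1 rose at 24 h (6.67%), Ttf1 by 0.25 (limma adjusted p = 0.0417), and none was called at 72 h. Of 10 genes of ribosome surveillance, 4 rose at 24 h (40.0%, against 11.1% of all named genes called upward) and none was called at 72 h with limma. All 10 lay above the receptor level, where 28.6% of all genes were called at 24 h in either direction. Gcn1, which senses collided ribosomes, rose by 0.55 at 24 h (limma adjusted p = 0.00052). Median log2 changes of these lists at 24 h were 0.11 for mTORC1 and Myc, -0.01 for elongation, 0.17 for initiation and 0.06 for biogenesis. They were 0.15 for polymerase I and 0.14 for surveillance, against -0.07 for the ribosomal protein members and 0.00818 for all genes.

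On the 6 MCAO 24 h arrays the mean member difference from sham ran from -0.11 to -0.06, with 27 to 31 of 67 members above the sham mean. On the 6 MCAO 72 h arrays it ran from -0.11 to -0.03, with 18 to 31 members above. All 12 MCAO arrays were negative on this measure, and so were most sham arrays, each set against the other shams of its time. The sham means include sham 24 h replicate 5, at 0.21, and sham 72 h replicate 3, at 0.12, the highest of their groups. Single sham arrays ran from -0.16 to 0.21 around the other shams, but both ends rest on 1 array each: the sham arrays other than sham 24 h replicates 3 and 5 ran from -0.07 to 0.12. Those replicates were set aside after their values were seen, so no MCAO array is read against the narrower range. All MCAO 24 h arrays lay within the full range of the sham 24 h arrays. The sham 72 h arrays ran from -0.05 to 0.12. MCAO 72 h replicates 4, 5 and 6 lay below that, at -0.06, -0.10 and -0.11, and replicates 1 to 3 lay within it. These differences were not tested.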

How the data were processed

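The deposited series table holds 1 log2 value per identifier and array, per the values themselves; how the authors normalized it is not stated in the labels. The sorted values of the 24 arrays were nearly identical, differing by at most 0.00191, as after quantile normalization. HOMER is the one tool named in the submitters' processing notes. Of 24973 identifiers, 24015 had a symbol in the platform annotation, giving 24011 named genes (4 symbols had several identifiers, and the brightest on average stood for its symbol), and 958 had none and were not used. Groups follow the sample titles; a description field of the 72 h samples reads 24 h.

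The 4 group means were fitted to all 24 arrays with limma 3.58.1 in R 4.3.3 (lmFit and eBayes, 20 residual degrees of freedom) and adjusted by Benjamini-Hochberg at 0.05. Paralog pairs were tested with exact permutations in scipy 1.17.1. The fit was also run on simulated data, and the outcome is not reported here. The number of arrays limits the precision, and no probe detection values were used here. The members and gene lists were chosen with earlier results of these data known. Named were, per comparison, the called members with the largest changes, the paralog pairs and reference genes, and in other lists up to 4 genes with the smallest p; the bright members, Rpl15, Rps3, Rps9, Rps23rg1, Rpl24 and others outside these were named after their values were seen. Alternatives changed the prior, normalization, filter, array weights, arrays, block and a covariate.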

Additional observations from a re-analysis of the deposited data

Results flagged for a closer look

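In 140 sets of 6 arrays (35 genes in 4 groups), 5 had 1 array far from the rest of its group by Dixon's test at 95%, which chance gives in about 1 in 20. Not every one of the 67 members was screened. Rpl29, whose MCAO 24 h replicate 6 read 4.73, was outside the screen, so the list says nothing on the members left out. Rpl19 read 4.60 on sham 24 h replicate 5 and 4.51 on sham 72 h replicate 3, both the highest of their groups. Rpl27 read 3.98 on sham 24 h replicate 2, Rps15a read 5.17 on sham 24 h replicate 1, and Rpl4 read 11.15 on MCAO 72 h replicate 4, each the lowest of its group. The change of Rps27 differed between 72 h and 24 h by -0.76, tested as an interaction (limma adjusted p = 0.0376).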

How the results depend on the processing

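The 18 member calls at 24 h became 11 of 39 when only genes above the median level were tested, and 9 when only the groups compared were fitted. They became 23 without MCAO 24 h replicates 5 and 6, 0 with the receptor covariate, and 13 to 22 when single arrays were left out. Without replicates 5 and 6, 14 of the 18 stayed, and Rpl22l1, Rpl39l, Rps15a and Rps3a1 were lost. Over all genes the main fit called 2654 higher and 2583 lower. The fit above the median level called 1642 and 1796 of 12005, the groups compared gave 1146 and 1048, and leaving out replicates 5 and 6 gave 2791 and 3065. With that covariate the change of Rps20 turned to 0.12 and that of Rpl39l to 0.0451. Array weights gave 12 calls, of which 10 were among the 18, and lost Rpl7l1, Rps15a, Rps20, Rps28, Rps29, Rpl22l1, Rpl24 and Rpl39l. Over all genes they gave 1569 higher and 1690 lower at 24 h. The 1 call at 72 h became 5 with array weights, 4 with only the groups compared and 2 without MCAO 24 h replicates 5 and 6. It became 1 to 2 when single arrays were left out. Rpl3l was among the called members each time. Over all genes the calls at 72 h rose as well, from 280 higher and 285 lower in the main fit. They numbered 953 and 952 with array weights, 735 and 675 with only the groups compared, and 570 and 533 without replicates 5 and 6. For the difference between times the 1 call became 2 with a trended prior, 2 above the median level and 6 without MCAO 24 h replicates 5 and 6. It became 0 with the covariate, 1 with array weights (Rps20 in place of Rps27), and 0 to 4 when single arrays were left out. Over all genes the main fit called 238 higher and 192 lower on this difference. Without replicates 5 and 6 these were 662 and 417, and with the covariate 3 and 2. The cause of these shifts was not tested. The paralog pairs that passed numbered 1 to 3 at 24 h and 1 to 2 at 72 h when single arrays were left out. Deviations from the group means were correlated between same-numbered sham and MCAO arrays of each time. They correlated at no more than 0.141, and mostly near 0, so the numbers were not taken to pair the arrays. With the replicate number as a replicate block the members called stayed 18, 1, 1 and 0, and 0 paralog pairs passed at either time by sign flips, whose smallest p is 0.0312. Of 50 other values of the counts, 38 stayed within 1.5 times. Most members lie near the receptor level, where true changes are hard to see.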
